A study of Mus musculus with 15 samples.

Results

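The nuclear genes for the subunits of the 5 complexes of oxidative phosphorylation are described here in an immature mouse red cell line that carried wild type or mutant GATA1. The members were the genes measured by a probe set with exactly 1 gene symbol whose symbol matched Nduf followed by a, b, c, s or v and a digit, Sdha to Sdhd, Uqcr, Cyc1, Cox4 to Cox8 or Atp5. Where a gene had several such probe sets, the brightest on average was kept. The rule used names and not differences between the lines, and it found 82 of 19933 genes: 35 of complex I, 4 of complex II, 9 of complex III, 17 of complex IV and 17 of complex V.

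G1E is a mouse erythroid precursor line that has no functional GATA1, the transcription factor that drives red cell maturation. The cells of every line made a fusion of GATA1 with the estrogen-binding part of the estrogen receptor (GATA1-ER), which estradiol switches on, and each culture had received 100 nM estradiol for 24 hours. The lines were wild type (GATA1-ER without a substitution), R216Q, R216W, D218G and D218Y, with 3 biological replicates each, 15 Affymetrix arrays in all. The substitutions lie in the amino-terminal zinc finger of GATA1. The wild type line was the reference, and untreated cells were not analysed here. The number of separately transduced pools behind a line is not stated in any source used here. An effect of the mutation and one of the line therefore cannot be told apart, and p-values cover only the spread between replicate cultures.

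Oxidative phosphorylation is the last stage of respiration in the inner membrane of mitochondria. Complex I takes electrons from NADH and complex II from succinate, ubiquinone carries them to complex III, cytochrome c carries them on to complex IV, which reduces oxygen, and the proton gradient built on the way drives ATP synthase, called complex V. A red cell precursor needs mitochondria for energy and for the first and last steps of haem synthesis, and it sheds them as it matures. Most subunits are encoded in the nucleus, and several subunits of complex IV exist as a general form and a form known from heart, muscle, testis or cells short of oxygen.

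The values are log2 expression values, so that a difference of 1 is a doubling. A change was called at an adjusted p under 0.05, from limma, which fits all genes together, with Benjamini-Hochberg adjustment over all 19933 genes of a comparison. The error of each log2 fold change is limma's standard error (SE), with 3 arrays in each line.

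The probe sets of 79 of the 82 members read above the median gene, and 52 were in the brightest 10% of all genes. Probe sets differ in how strongly they bind, so this describes the signal and not which subunit has more transcript. The 15 arrays had medians between 6.24 and 6.41. The medians of the D218Y arrays, 6.24 to 6.29, lay below those of the wild type arrays, 6.31 to 6.41, and the third D218G array, at 6.25, lay below the other D218G arrays, at 6.37 and 6.40. The cell type was checked against its markers, each by its mean over the 15 arrays. All 9 erythroid markers measured, of 10 listed, read above the median gene, as did 2 of 4 megakaryocyte markers (Gp9 and Itga2b). By this mean none of the mast cell, granulocyte and monocyte or lymphoid markers did. Gp9, a platelet membrane glycoprotein, had a line mean of 9.21 in the wild type and 7.28 in D218Y, and the 4 megakaryocyte markers summed to 25.77 and 23.32. The line mean of Gata1 was 12.36 in the wild type and 12.07 in D218Y. The summed log2 level of the erythroid markers was 102.98 in the wild type, between 99.57 and 101.05 in R216Q, R216W and D218G, and 89.48 in D218Y. Slc4a1 (12.41 in the wild type and 6.81 in D218Y) and Alas2 (12.33 and 9.15) fell most. Others fell less, as Klf1 did (11.58 and 11.30). The 6 mast cell markers summed to 28.77 in the wild type and 31.61 in D218Y, mostly through Ms4a2 (4.10 and 6.56), the beta chain of the IgE receptor, and Cpa3 (5.26 and 5.91), a mast cell protease. At 6.56, Ms4a2 lay above the medians of the D218Y arrays. The part of these shifts in the changes of the respiratory genes was not tested, and in such bulk RNA fewer cells of a kind and less RNA per cell cannot be told apart.

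Most subunit genes differed little between the lines, and the changes went both ways. In D218Y 40 of the 82 members passed the threshold, 19 higher and 21 lower than in the wild type, a share of 48.8% where 44.4% of all genes passed (20.3% higher and 24.2% lower). In R216Q 17 members passed, 8 higher and 9 lower, 20.7% against 21.5% of all genes (11.8% higher, 9.65% lower). In R216W 11 passed, 3 higher and 8 lower, 13.4% against 16.6% (9.36% higher, 7.23% lower). In D218G 11 passed, 7 higher and 4 lower, 13.4% against 18.1% (10.3% higher, 7.77% lower). In each mutant line the share was thus near that of all genes. Bright genes passed more often: of the brightest 10% of genes 72.1% passed in D218Y, 47.9% in R216Q, 37.2% in R216W and 38.5% in D218G, and of the 52 members among them 57.7%, 25%, 9.62% and 15.4%. The comparisons share the wild type arrays.

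The direction of the calls depended on how arrays were scaled. After each array was centred on its median gene, which raises the D218Y values relative to the wild type, 24 members were higher and 8 lower in D218Y. All 19 rises passed again, while 13 of the 21 falls did not (adjusted p from limma 0.102 to 0.78). Centring gave 3 higher and 6 lower in R216Q, 0 and 2 in R216W, and 4 and 1 in D218G. A cyclic loess normalization gave 5 higher and 8 lower in R216W, and a repeated quantile normalization gave 13 higher and 10 lower in R216Q. The counts in the other lines rested in part on single arrays. R216Q had 11 calls without wild type replicate 1, without wild type replicate 3 or without R216Q replicate 3. R216W had 6 without wild type replicate 1 or R216W replicate 1, and D218G had 7 without D218G replicate 3. In D218Y 30 of the 40 calls passed whichever array was left out, and so did 8 of 17 in R216Q, 5 of 11 in R216W and 7 of 11 in D218G.

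The changes were mostly small. The median size of the log2 difference in D218Y, whatever its sign, was 0.13 over the members, 0.15 over all genes and 0.22 over the brightest 10% of genes. A change of at least 1.5-fold in D218Y was seen in 2 of 82 members (2.44%), in 10.1% of all genes and in 13.7% of the brightest 10%. The median signed difference of the members was -0.01 in R216Q, -0.02 in R216W, 0.02 in D218G and 0.00 in D218Y, with medians over all genes of -0.01, -0.02, -0.02 and -0.07. Over all alternatives the D218Y median ran from -0.02 to 0.09. The 8 forms known from heart, muscle, testis or low oxygen (Cox4i2, Cox6a2, Cox6b2, Cox7a1, Cox7b2, Cox8b, Cox8c and Ndufa4l2) held every member that reached 1.5-fold in any comparison: 0 of the other 74 did. The only member at 2-fold or more was Cox7a1 in D218Y, where 3.57% of all genes passed at 2-fold. No test of these descriptions was made.

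**Figure D1:**
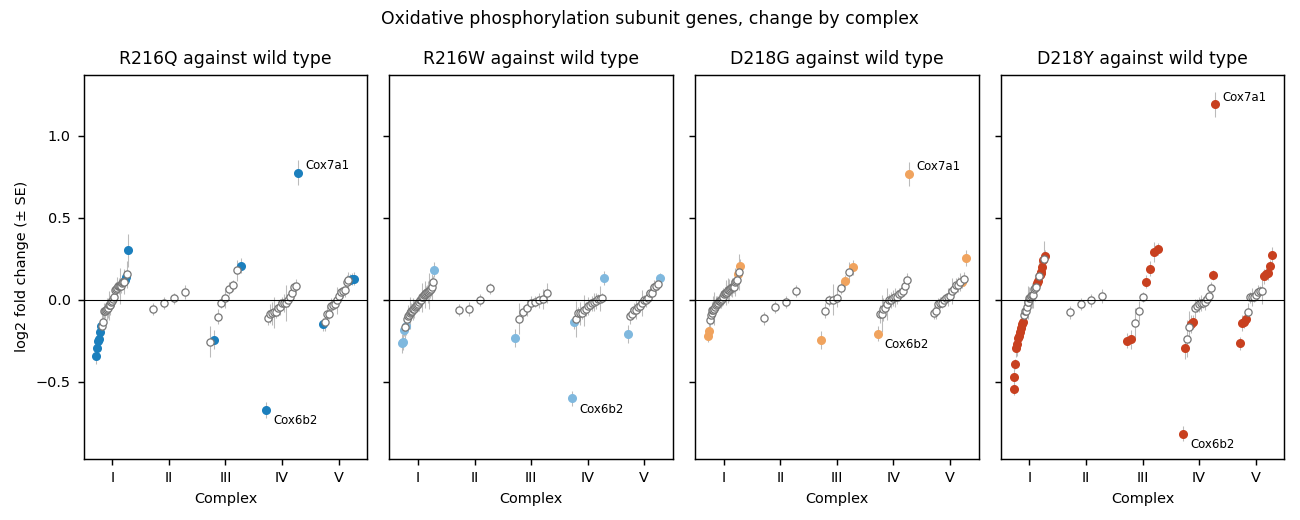
Log2 fold change of each of the 82 members against the wild type (vertical axis), by complex (horizontal axis), in each mutant line. Points are genes with bars of 1 SE, and filled points passed the adjusted p under 0.05. Nearly all points lie close to 0, and Cox7a1 (1.19 in D218Y) and Cox6b2 (-0.82 in D218Y), both of complex IV, stand outside.

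The F test, which asks whether any line differs, passed in 40 of 82 members (48.8%, against 41.9% of all genes): 19 of 35 in complex I, 1 of 4 in complex II, 5 of 9 in complex III, 6 of 17 in complex IV and 9 of 17 in complex V. Against the wild type, 37 members passed in 0 mutant lines, 24 in 1, 11 in 2, 7 in 3 and 3 in 4. No member passed in both directions. The same counts were not made over all genes, and the comparisons share the wild type arrays. These counts are therefore not read as particular to the members. The members lower in all 4 mutant lines were Ndufa11 of complex I, Uqcr11 of complex III and Cox6b2 of complex IV. For Ndufa11 and Uqcr11 the R216W call did not pass on the gene's second probe set (limma adjusted p = 0.19 and 0.0561). Those higher in 3 lines were Ndufa8 and Ndufv3 of complex I, Uqcrq of complex III, Cox7a1 of complex IV and Atp5c1 of complex V. Ndufa6 and Ndufb9 of complex I were lower in 3. Some of these calls rested on single arrays. That of Ndufv3 was lost without R216W replicate 1 in R216W (limma adjusted p = 0.0662), without D218Y replicate 2 in D218Y (adjusted p = 0.0655), and without any wild type array or D218G replicate 2 or 3 in D218G (0.0606 to 0.0861), and in each of these 3 lines under repeated quantile normalization. That of Atp5c1 was lost without wild type replicate 1 or R216Q replicate 3 in R216Q (limma adjusted p 0.0653 to 0.0822) and without any 1 array other than R216Q replicates 2 and 3 in D218G (0.0512 to 0.133).

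GATA1 binds DNA, and the motifs of other factors are known at respiratory genes. The stretch just before the start of 4 of the genes with large changes is therefore shown here. Each is the 250 bases before the RefSeq start (assembly GRCm38.p6), 5′ to 3′ on the strand of the gene. Capitals mark matches on either strand to the GATA hexamer (AGATAA, with A or T as the first base and A or G as the last), the NRF1 palindrome GCGCATGCGC or the ETS core CCGGAAG. Cox7a1 is at chr7:30183921-30184170 on the plus strand, Cox6b2 at chr7:4753095-4753344 on the minus strand, Ndufa11 at chr17:56717512-56717761 on the plus strand and Ndufs3 at chr2:90904722-90904971 on the minus strand.
Cox7a1: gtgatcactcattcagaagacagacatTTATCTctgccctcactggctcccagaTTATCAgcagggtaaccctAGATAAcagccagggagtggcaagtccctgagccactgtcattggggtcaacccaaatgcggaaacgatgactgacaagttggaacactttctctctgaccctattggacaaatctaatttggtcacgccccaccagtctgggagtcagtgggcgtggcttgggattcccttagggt
Cox6b2: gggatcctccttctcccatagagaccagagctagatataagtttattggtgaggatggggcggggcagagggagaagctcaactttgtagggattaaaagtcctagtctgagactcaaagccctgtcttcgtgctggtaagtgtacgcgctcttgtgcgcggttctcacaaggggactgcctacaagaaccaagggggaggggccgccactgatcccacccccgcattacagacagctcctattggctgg
Ndufa11: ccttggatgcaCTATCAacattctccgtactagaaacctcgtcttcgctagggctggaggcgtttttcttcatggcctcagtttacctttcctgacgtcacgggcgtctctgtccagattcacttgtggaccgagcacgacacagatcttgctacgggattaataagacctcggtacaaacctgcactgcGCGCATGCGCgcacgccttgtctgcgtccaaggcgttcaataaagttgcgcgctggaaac
Ndufs3: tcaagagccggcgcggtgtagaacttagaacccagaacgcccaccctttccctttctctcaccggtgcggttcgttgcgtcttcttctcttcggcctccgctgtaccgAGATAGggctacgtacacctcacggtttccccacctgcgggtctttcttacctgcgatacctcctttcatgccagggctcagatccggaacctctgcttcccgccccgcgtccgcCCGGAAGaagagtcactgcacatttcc

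The Cox7a1 stretch holds 3 GATA hexamers and the Ndufa11 stretch 1 and the NRF1 palindrome. The Ndufs3 stretch holds 1 and an ETS core, and the Cox6b2 stretch none of these letters. Ndufa6, which fell more in D218Y than Ndufa11 and Ndufs3, is not printed, and its window also held none of them. The RefSeq promoter table held 66 of the 82 members. Of these, 19 (28.8%) had a GATA hexamer in the window, where 25.7% of 15559 tested genes in the table did. The NRF1 palindrome was in 4 members (6.06%, against 1.33%), the ETS core in 12 (18.2%, against 10.7%) and the YY1 motif AAGATGGCG in 1 (1.52%, against 0.913%). Among the 14 members with a window that were higher in D218Y, 6 held a GATA hexamer, 0 the NRF1 palindrome and 1 the ETS core. Among the 19 that were lower, 3 held a GATA hexamer, 2 the palindrome and 7 the ETS core. Among the 33 that did not pass, the counts were 10, 2 and 4. These are descriptions of letters in a short window, with no test, and they say nothing of binding.

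Complex IV, cytochrome c oxidase, held the largest changes, and both were in tissue-restricted forms. Cox7a1, the form of subunit 7a known from heart and muscle, read 9.70, 9.58 and 9.69 in the wild type arrays and 10.90, 10.86 and 10.79 in D218Y. It read 10.57, 10.52 and 10.20 in R216Q, 10.41, 10.39 and 10.47 in D218G, and 9.68, 9.62 and 9.69 in R216W. All arrays of R216Q, D218G and D218Y lay above all wild type arrays, and those of R216W lay among them. Cox7a1 rose by 1.19 ± 0.08 in D218Y (SE, limma adjusted p = 5.2e-09), or 128%, by 0.77 ± 0.08 in R216Q (adjusted p = 2.43e-06) and by 0.77 ± 0.08 in D218G (adjusted p = 4.26e-06). In R216W the difference was 0.01 ± 0.08 (adjusted p = 0.974). The general form Cox7a2 differed from the wild type by -0.05 to 0.01 over the 4 lines and passed in none.

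Cox6b2, the testis form of subunit 6b, went the other way. It read 9.60, 9.59 and 9.64 in the wild type, 9.33, 9.42 and 9.46 in D218G, 9.05, 8.96 and 9.02 in R216W, 8.89, 9.03 and 8.89 in R216Q, and 8.79, 8.81 and 8.79 in D218Y. Every array of every mutant line lay below every wild type array, and D218Y was lowest. Its log2 fold change was -0.82 ± 0.05 in D218Y (limma adjusted p = 1.45e-09), a change of -43.2%, -0.67 ± 0.05 in R216Q (adjusted p = 7.01e-08), -0.60 ± 0.05 in R216W (adjusted p = 3.06e-07) and -0.21 ± 0.05 in D218G (adjusted p = 0.00485). The D218G call was lost under median centring (limma adjusted p = 0.103). The general form Cox6b1 differed by -0.11 to -0.02 over the 4 lines and passed in none.

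The other complex IV genes moved less. Cox8c, a testis form, fell by 0.29 ± 0.07 in D218Y (limma adjusted p = 0.00398). It read 6.99, 7.12 and 7.19 in the wild type and 6.83, 6.83 and 6.77 in D218Y, below all wild type arrays. Cox4i1, the general form of the largest nuclear subunit, rose by 0.15 ± 0.03 (adjusted p = 0.00112), from 11.06, 11.00 and 11.03 to 11.18, 11.19 and 11.17. Its low-oxygen counterpart Cox4i2 was at -0.16 ± 0.10 (adjusted p = 0.177) and the heart form Cox6a2 at -0.24 ± 0.11 (adjusted p = 0.0988), neither past the threshold. Cox8b, a muscle form, was at -0.15 ± 0.05 (adjusted p = 0.0352), a call lost without wild type replicate 1 or 3 or without D218Y replicate 1 or 2 (adjusted p from limma 0.0572 to 0.162) and under each other normalization. Its general partner Cox8a passed in no line and was at -0.02 ± 0.03 in D218Y. Cox7b2, a testis form read near the bottom of the scale, at 4.28, 4.31 and 4.31 in the wild type and 4.41, 4.39 and 4.49 in R216W, was at 0.13 ± 0.04 in R216W (adjusted p = 0.0347). That call was lost without any 1 of the wild type arrays or R216W replicate 1 or 3 (limma adjusted p 0.0587 to 0.159), and under median centring. Its general partner Cox7b passed in no line. Cox6a1, the general form of subunit 6a, was at -0.14 ± 0.04 (adjusted p = 0.0166) and lost its call without wild type replicate 2 or D218Y replicate 1 (0.0657 and 0.0697), and under median centring. Of the 10 complex IV members outside the tissue and low-oxygen forms, 1 rose and 1 fell in D218Y. These are 10% each, beside 20.3% of all genes higher and 24.2% lower. Cox7a2l, known for its part in joining complexes III and IV, was measured by 2 probe sets that differed: -0.03 for the one used and 0.28 for the other, which alone passed.

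**Figure D2:**
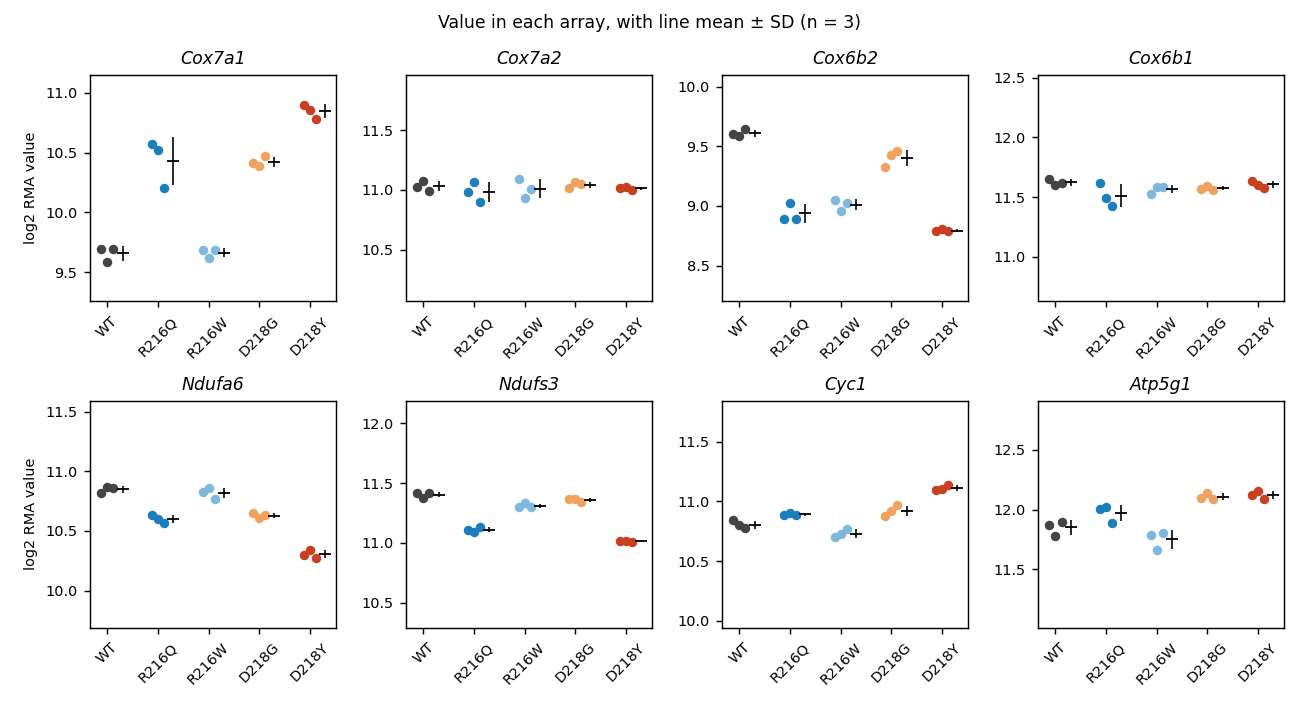
Log2 expression of 8 members on each of the 15 arrays (vertical axis), grouped by line (horizontal axis); points are arrays, and the mark beside them is the line mean with its SD (n = 3). Cox7a1 is higher in R216Q, D218G and D218Y and Cox6b2 lower in every mutant line, while their general counterparts Cox7a2 and Cox6b1 passed the test in no line.

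Complex I had 8 rises and 11 falls among its 35 members in D218Y (22.9% and 31.4%, beside 20.3% and 24.2% of all genes). The largest fall was that of Ndufa6, an accessory subunit of the matrix arm that belongs to the LYR family. It read 10.82, 10.87 and 10.86 in the wild type, 10.63, 10.60 and 10.56 in R216Q, 10.65, 10.61 and 10.63 in D218G, and 10.30, 10.34 and 10.27 in D218Y. In R216W it read 10.83, 10.86 and 10.77, which overlaps the wild type, while the other 3 lines lay below it. It fell by 0.55 ± 0.04 in D218Y (limma adjusted p = 8.97e-09), by 0.25 ± 0.04 in R216Q (adjusted p = 0.000111) and by 0.22 ± 0.04 in D218G (adjusted p = 0.000483).

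Ndufa11, an accessory subunit of the membrane arm, fell in all 4 lines. It read 11.16, 11.10 and 11.13 in the wild type, 10.87, 10.87 and 10.89 in R216W, 10.98, 10.96 and 10.89 in D218G, and 10.72, 10.65 and 10.63 in D218Y. The R216Q arrays spread from 10.66 to 10.90. No mutant array reached the lowest wild type array. Its log2 fold change was -0.47 ± 0.05 in D218Y (limma adjusted p = 2.3e-06), -0.34 ± 0.05 in R216Q (adjusted p = 0.000154), -0.26 ± 0.05 in R216W (adjusted p = 0.00229) and -0.19 ± 0.05 in D218G (adjusted p = 0.0182). In D218G the call was lost without wild type replicate 1 or D218G replicate 3 (adjusted p from limma 0.0625 and 0.0718) and under median centring. Its second probe set was at -0.35 ± 0.05 in D218Y, -0.15 ± 0.05 in R216Q and -0.15 ± 0.05 in D218G, all past the threshold, and at -0.10 ± 0.05 in R216W, which did not pass (limma adjusted p = 0.19).

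Among the core subunits of complex I, which carry the flavin and the iron-sulfur clusters or hold them in place, 6 encoded in the nucleus were measured. Ndufs3 read 11.42, 11.38 and 11.42 in the wild type, 11.30, 11.33 and 11.30 in R216W, 11.37, 11.37 and 11.34 in D218G, 11.10, 11.09 and 11.14 in R216Q, and 11.02, 11.01 and 11.01 in D218Y. The arrays of all 4 mutant lines lay below all wild type arrays, in D218G by less than 0.01, and the R216W and D218G differences did not pass (limma adjusted p = 0.0526 and 0.419). Ndufs3 fell by 0.39 ± 0.03 in D218Y (limma adjusted p = 6.31e-08) and by 0.29 ± 0.03 in R216Q (adjusted p = 5.55e-06), and its second probe set changed by -0.37 in D218Y and by -0.30 in R216Q, and by -0.10 in R216W, where it passed (adjusted p = 0.0416). The iron-sulfur subunits Ndufs1 and Ndufs8 were at 0.10 ± 0.04 and -0.15 ± 0.05 in D218Y (adjusted p = 0.0262 and 0.0345). Both calls were lost without wild type replicate 1 or 3 or without any 1 of the D218Y arrays (adjusted p from limma 0.0515 to 0.0946 for Ndufs1 and 0.052 to 0.162 for Ndufs8), and that of Ndufs8 also under repeated quantile normalization and median centring. Ndufs8 was also at -0.20 ± 0.05 in R216Q (adjusted p = 0.0137), a call lost without wild type replicate 3 or R216Q replicate 3 (limma adjusted p 0.0722 to 0.0738). Ndufs7, Ndufv1 and Ndufv2, also core subunits, passed in no mutant line.

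Calls among the accessory subunits of complex I went both ways. Of 29 measured, 7 rose and 9 fell in D218Y (24.1% and 31%), near the 20.3% and 24.2% of all genes. Ndufb7, which lies on the side of the space between the membranes, fell by 0.30 ± 0.05 (limma adjusted p = 0.000251), from 9.51, 9.41 and 9.54 to 9.21, 9.21 and 9.16. The membrane arm subunits Ndufc2 and Ndufb5 rose by 0.27 ± 0.04 and 0.25 ± 0.05 (adjusted p = 4.23e-05 and 0.000631). Ndufc2 read 12.15, 12.18 and 12.22 in the wild type and 12.45, 12.44 and 12.47 in D218Y, with no overlap. Ndufa9, which lies near the site where ubiquinone binds, rose by 0.20 ± 0.04 (adjusted p = 0.00179). Ndufa8 rose in R216Q, D218G and D218Y, by 0.14 ± 0.04, 0.20 ± 0.04 and 0.17 ± 0.04 (adjusted p = 0.0251, 0.00216 and 0.00389). The R216Q call of Ndufa8 was lost without wild type replicate 2, R216Q replicate 1 or R216Q replicate 3 (limma adjusted p 0.0578 to 0.119), and under median centring.

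Calls within the same arm went both ways. Of the 9 measured accessory subunits of the matrix arm, 2 rose and 3 fell in D218Y (22.2% and 33.3%). Of all genes 20.3% rose and 24.2% fell there, so these counts are not read as particular to the arm. Ndufs4, one of them and a known gene of inherited complex I deficiency, fell by 0.23 ± 0.04 (limma adjusted p = 0.00037), from 11.60, 11.66 and 11.61 to 11.36, 11.38 and 11.43. Ndufa7 fell by 0.27 ± 0.07 (adjusted p = 0.00541), and neither fall passed under median centring. Ndufb10 fell by 0.27 ± 0.06 in R216W (adjusted p = 0.00459) and Ndufb9 by 0.18 ± 0.04 (adjusted p = 0.00556), and neither passed there under median centring. Ndufa4l2, which low oxygen induces, was at 0.30 ± 0.10 in R216Q (adjusted p = 0.0437). It read 6.32, 6.22 and 6.32 in the wild type and 6.59, 6.42 and 6.77 in R216Q, and the call was lost without any 1 of 10 arrays (limma adjusted p 0.0527 to 0.205). It was kept only without R216Q replicate 2, D218G replicate 2 or 3, or D218Y replicate 1 or 2. Its general counterpart Ndufa4, now counted with complex IV by many, differed by 0.00 to 0.11 over the 4 lines and passed in none.

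**Figure D3:**
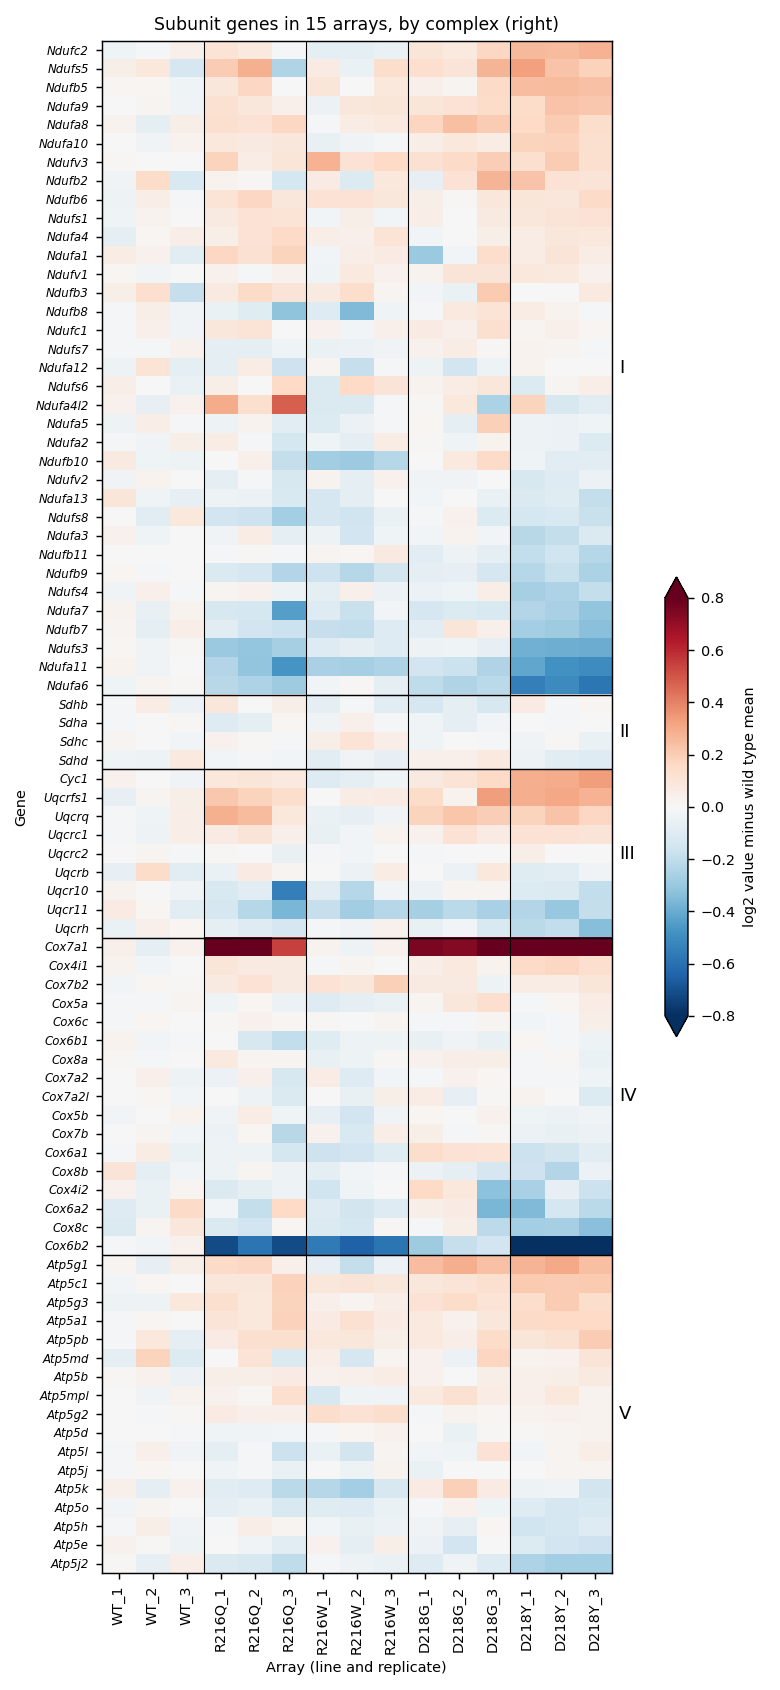
Difference of each array from the wild type mean (colour, log2, limited at 0.8 either way) for the 82 members (rows, by complex) on 15 arrays (columns, by line). D218Y has the most coloured cells in both directions, and Cox7a1 and Cox6b2 are the strongest rows.

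Complex II, succinate dehydrogenase, had no member past the threshold in any mutant line against the wild type. Sdha, the flavoprotein that oxidises succinate, read 11.29, 11.30 and 11.32 in the wild type and 11.30, 11.30 and 11.31 in D218Y, which overlap. Its differences ran from -0.06 in R216Q to -0.00 in R216W. Sdhb, the iron-sulfur subunit, was at -0.11 ± 0.04 in D218G (limma adjusted p = 0.0783) and 0.02 ± 0.04 in D218Y. Sdhc and Sdhd, the membrane anchors, were at -0.03 ± 0.03 and -0.08 ± 0.04 in D218Y (adjusted p = 0.553 and 0.113).

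Complex III had 4 rises and 2 falls among its 9 members in D218Y (44.4% and 22.2%, beside 20.3% and 24.2% of all genes). The rises included carriers of electrons. Cyc1, cytochrome c1, read 10.84, 10.80 and 10.78 in the wild type and 11.10, 11.10 and 11.14 in D218Y. It rose by 0.31 ± 0.04 (limma adjusted p = 4.15e-06), with no overlap between the arrays. Uqcrfs1, the Rieske iron-sulfur protein, rose by 0.29 ± 0.06 (adjusted p = 0.00125), from 9.00, 9.09 and 9.11 to 9.36, 9.38 and 9.34. Uqcrq, a small subunit without a redox group, rose in R216Q (0.21 ± 0.05, adjusted p = 0.00459), D218G (0.20 ± 0.05, adjusted p = 0.00819) and D218Y (0.19 ± 0.05, adjusted p = 0.00446). It read 10.60, 10.58 and 10.67 in the wild type and 10.57, 10.55 and 10.59 in R216W, and from 10.71 to 10.90 on the arrays of the other lines, above all of these.

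Other small subunits of complex III fell. Uqcrh, the hinge protein, fell by 0.25 ± 0.05 in D218Y (limma adjusted p = 0.000368). Uqcr11, another small subunit, read 10.86, 10.81 and 10.71 in the wild type and between 10.43 and 10.66 on the 12 mutant arrays, all below the wild type. Its log2 fold changes were -0.24 ± 0.06 in R216Q and D218Y, -0.23 ± 0.06 in R216W and -0.25 ± 0.06 in D218G (adjusted p = 0.00497, 0.00267, 0.00927 and 0.00569). The R216W call was lost without wild type replicate 1 (adjusted p = 0.0519), and under median centring the calls in R216W, D218G and D218Y were lost. The core proteins Uqcrc1 and Uqcrc2 were at 0.11 ± 0.04 and 0.02 in D218Y, and the call of Uqcrc1 (adjusted p = 0.0298) was lost without wild type replicate 1 or 2 or any 1 of the D218Y arrays (limma adjusted p 0.0565 to 0.0909), and under cyclic loess normalization.

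Complex V, ATP synthase, had 5 rises and 4 falls among 17 members in D218Y (29.4% and 23.5%, beside 20.3% and 24.2% of all genes). The 3 genes Atp5g1, Atp5g2 and Atp5g3 encode the same mature c subunit of the rotor ring and differ in their import sequence. Atp5g1 read 11.87, 11.78 and 11.90 in the wild type, 12.10, 12.14 and 12.09 in D218G, and 12.12, 12.16 and 12.09 in D218Y, with no overlap. It rose by 0.26 ± 0.05 in D218G (limma adjusted p = 0.00148) and by 0.27 ± 0.05 in D218Y (adjusted p = 0.000318), and its second probe set also changed by 0.27 in D218Y. Atp5g3 rose by 0.16 ± 0.04 in D218Y (adjusted p = 0.00589). Atp5g2 was at 0.03 in D218Y and rose by 0.13 ± 0.03 in R216W alone among the mutant lines (adjusted p = 0.00621), a call lost under median centring and on 1 of its 3 probe sets (limma adjusted p = 0.0882).

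In the catalytic head of ATP synthase, Atp5c1, the central gamma shaft, rose by 0.21 ± 0.03 in D218Y (limma adjusted p = 0.000129) and Atp5a1, the alpha subunit, by 0.16 ± 0.04 (adjusted p = 0.00246). Atp5b, the beta subunit that holds the catalytic sites, read 12.64, 12.67 and 12.59 in the wild type and 12.67, 12.68 and 12.70 in D218Y and passed in no line. Atp5e, the epsilon subunit at the foot of the shaft, was at -0.14 ± 0.05 in D218Y (adjusted p = 0.024), a call lost without wild type replicate 1 or 2 or D218Y replicate 2 or 3 (limma adjusted p 0.0522 to 0.0796), and under median centring. In the membrane part outside the c ring, Atp5j2, subunit f, fell by 0.26 ± 0.04 in D218Y (adjusted p = 5.95e-05), from 11.85, 11.77 and 11.89 to 11.59, 11.57 and 11.56. In the peripheral stalk, which keeps the head from turning, Atp5h was at -0.13 ± 0.04 and Atp5o, the oligomycin sensitivity protein, at -0.12 ± 0.03 (adjusted p = 0.00786 and 0.0115), both lost under median centring. Atp5pb, the membrane-anchored b subunit of the stalk, was at 0.14 ± 0.05 (adjusted p = 0.0211) and its second probe set at 0.17 ± 0.05 (adjusted p = 0.00963). The call of the probe set used was lost without wild type replicate 1 or 3 or D218Y replicate 3 (limma adjusted p 0.0615 to 0.104). Atp5k, subunit e, was at -0.21 ± 0.05 in R216W (adjusted p = 0.0141), a call lost without wild type replicate 1 or 3 or R216W replicate 1 or 2 (limma adjusted p 0.0518 to 0.0725), and under median centring.

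The lines changed at the same residue were set against each other. Between the R216 lines, 10 members differed, 2 higher and 8 lower in R216W than in R216Q, 12.2% where 16.9% of all genes did (8.25% higher, 8.65% lower). Cox7a1 was lower in R216W by -0.77 ± 0.08 (limma adjusted p = 3.51e-06), Uqcrq by -0.26 ± 0.05 (adjusted p = 0.00126) and Atp5g1 by -0.22 ± 0.05 (adjusted p = 0.00458). Ndufa6 and Ndufs3 were higher in R216W, by 0.22 ± 0.04 and 0.20 ± 0.03 (adjusted p = 0.000471 and 0.000293). For Cox6b2 the difference was 0.07 ± 0.05 (adjusted p = 0.411). Without R216W replicate 1 there were 6 calls, and median centring gave 2 higher and 4 lower.

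Between the D218 lines, 25 members differed, 8 higher and 17 lower in D218Y than in D218G, 30.5% where 33% of all genes did (17.4% higher, 15.6% lower). Cox6b2 was lower in D218Y by -0.61 ± 0.05 (limma adjusted p = 7.44e-08), Ndufs3 by -0.34 ± 0.03 (adjusted p = 4.54e-07), Ndufa6 by -0.33 ± 0.04 (adjusted p = 4.42e-06) and Ndufb7 by -0.31 ± 0.05 (adjusted p = 0.000206). Cox7a1 was higher by 0.42 ± 0.08 (adjusted p = 0.000392) and Cyc1 by 0.19 ± 0.04 (adjusted p = 0.000568). Cox6a1 was lower by -0.26 ± 0.04 (adjusted p = 0.000174): it read 11.65, 11.62 and 11.62 in D218G and 11.34, 11.36 and 11.42 in D218Y, with the wild type between, at 11.50, 11.57 and 11.46. In complex II, Sdhb was higher by 0.14 ± 0.04 (adjusted p = 0.0205) and Sdhd lower by -0.13 ± 0.04 (adjusted p = 0.0153). The Sdhb call was lost without D218G replicate 1 or D218Y replicate 1 (adjusted p from limma 0.071 and 0.0951), and the Sdhd call without D218Y replicate 3 (adjusted p = 0.0597). Median centring gave 8 higher and 7 lower.

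Genes that build, feed and regulate the complexes were taken from 5 lists of 97 measured genes. The lists also held 2 subunits encoded by mitochondrial DNA and the complex I subunit gene Ndufab1. In D218Y 80 of them passed, 62 higher and 18 lower, beside 44.4% of all genes (20.3% higher, 24.2% lower). In R216Q 45 passed (34 higher, 11 lower), beside 21.5% of all genes (11.8% higher, 9.65% lower). In D218G 38 passed (34 higher, 4 lower), beside 18.1% (10.3% higher, 7.77% lower), and in R216W 27 (18 higher, 9 lower), beside 16.6% (9.36% higher, 7.23% lower). A repeated quantile normalization gave 54 higher and 25 lower in D218Y and 19 and 14 in R216W, and median centring gave 10 and 3 in R216W. The R216W count was 17 and the D218G count 24 without wild type replicate 1. The lists were described and not tested as sets.

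Of 47 assembly factors, which help build the complexes without staying in them, 28 rose and 9 fell in D218Y, with a median log2 fold change of 0.17. Over all alternatives the median ran from 0.13 to 0.27. The counts were 16 and 5 in R216Q, 8 and 5 in R216W and 16 and 3 in D218G. Ndufaf4, a complex I assembly factor, read 8.36, 8.39 and 8.34 in the wild type and 9.30, 9.39 and 9.40 in D218Y, a rise of 1.00 ± 0.07 (limma adjusted p = 1.08e-08). In R216W it read 8.04, 8.15 and 8.15, below the wild type, a change of -0.25 ± 0.07 (adjusted p = 0.0189). That call was lost without wild type replicate 1 or 2 or R216W replicate 1 (adjusted p from limma 0.0524 to 0.0877). Coa7, a complex IV assembly factor, rose by 1.00 ± 0.06 in D218Y (adjusted p = 1.64e-09), by 0.53 ± 0.06 in R216Q and by 0.44 ± 0.06 in D218G. Ndufaf3, another complex I factor, fell by 0.44 ± 0.04 in D218Y (adjusted p = 1.36e-07), from 10.51, 10.48 and 10.56 to 10.11, 10.06 and 10.05.

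Of 9 carriers and inhibitors, 6 rose and 2 fell in D218Y. The 9 include Ndufab1, a subunit of complex I whose symbol the rule for members does not match. Ndufab1 read 10.08, 10.05 and 10.10 in the wild type and 10.30, 10.34 and 10.36 in D218Y. Slc25a4, the heart and muscle form of the ADP/ATP carrier, read 9.44, 9.49 and 9.51 in the wild type and 10.63, 10.70 and 10.70 in D218Y. It rose by 1.20 ± 0.06 in D218Y (limma adjusted p = 1.95e-10), 0.66 ± 0.06 in R216Q, 0.62 ± 0.06 in D218G and 0.46 ± 0.06 in R216W. Cycs, cytochrome c, rose by 0.26 ± 0.05 in D218Y (adjusted p = 0.000683). Atpif1, the inhibitor of ATP synthase, fell by 0.32 ± 0.03 (adjusted p = 7.01e-07). Vdac1, the main pore of the outer membrane, fell in R216Q, D218G and D218Y, by 0.35 ± 0.04, 0.31 ± 0.04 and 0.27 ± 0.04 (adjusted p = 4.43e-06, 2.26e-05 and 1.84e-05). In R216W it was at 0.15 ± 0.04, in the opposite direction (adjusted p = 0.0103), a call lost without wild type replicate 1 or R216W replicate 2 (limma adjusted p = 0.0519 and 0.0576), and under median centring.

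The citrate cycle and pyruvate dehydrogenase supply the electrons, and 12 of 18 measured genes rose and 4 fell in D218Y. Idh3a, the catalytic subunit of the NAD-dependent isocitrate dehydrogenase, rose by 1.01 ± 0.05 in D218Y (limma adjusted p = 1.09e-10), from 10.27, 10.36 and 10.39 to 11.33, 11.36 and 11.37. Suclg2 of succinyl-CoA ligase rose by 0.92 ± 0.05 (adjusted p = 9.53e-10) and by 0.39 to 0.52 in the other 3 lines. Ogdh, of the 2-oxoglutarate dehydrogenase complex, fell by 0.31 ± 0.04 in D218Y (adjusted p = 3.61e-06). In R216W 4 of these genes rose and 2 fell.

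Of 21 genes of mitochondrial gene expression and biogenesis, 15 rose and 3 fell in D218Y. Top1mt, the topoisomerase of mitochondrial DNA, read 6.68, 6.59 and 6.37 in the wild type, 6.95, 7.17 and 6.99 in R216W, 7.65, 7.73 and 7.81 in R216Q, 7.51, 7.51 and 7.63 in D218G, and 9.26, 9.10 and 9.15 in D218Y. Every mutant array lay above the wild type. It rose by 2.62 ± 0.08 in D218Y (limma adjusted p = 1.61e-12), by 1.18 ± 0.08 in R216Q, by 1.00 ± 0.08 in D218G and by 0.49 ± 0.08 in R216W. Twnk, the mitochondrial DNA helicase, rose by 1.16 ± 0.09 in D218Y (adjusted p = 3.24e-08) and the coactivator Pprc1 by 1.13 ± 0.05 (adjusted p = 3.69e-11). Nrf1, a transcription factor of respiratory genes, and Gabpb2, a subunit of an ETS-type factor, fell by 0.37 ± 0.05 and 0.46 ± 0.04 (adjusted p = 4.09e-05 and 6.03e-08). Gabpa, another subunit of that factor, read higher, at 9.75, 9.80 and 9.78 in the wild type and 9.95, 9.83 and 9.93 in D218Y. Gabpb1 read lower, at 9.64, 9.63 and 9.59 and at 9.51, 9.47 and 9.56. Yy1 read 10.97, 10.97 and 10.95 in the wild type and 10.96, 11.00 and 11.01 in D218Y.

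The array also held 2 subunits encoded by mitochondrial DNA. COX2, a catalytic subunit of complex IV, was at 0.02 in D218Y and passed in no line. ND3, of complex I, was at 0.21 ± 0.08 in D218Y (limma adjusted p = 0.0454), a call kept only without wild type replicate 2, R216Q replicate 2 or 3, or D218G replicate 2 or 3 and lost without any 1 of the other 10 arrays (limma adjusted p 0.0531 to 0.219).

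**Figure D4:**
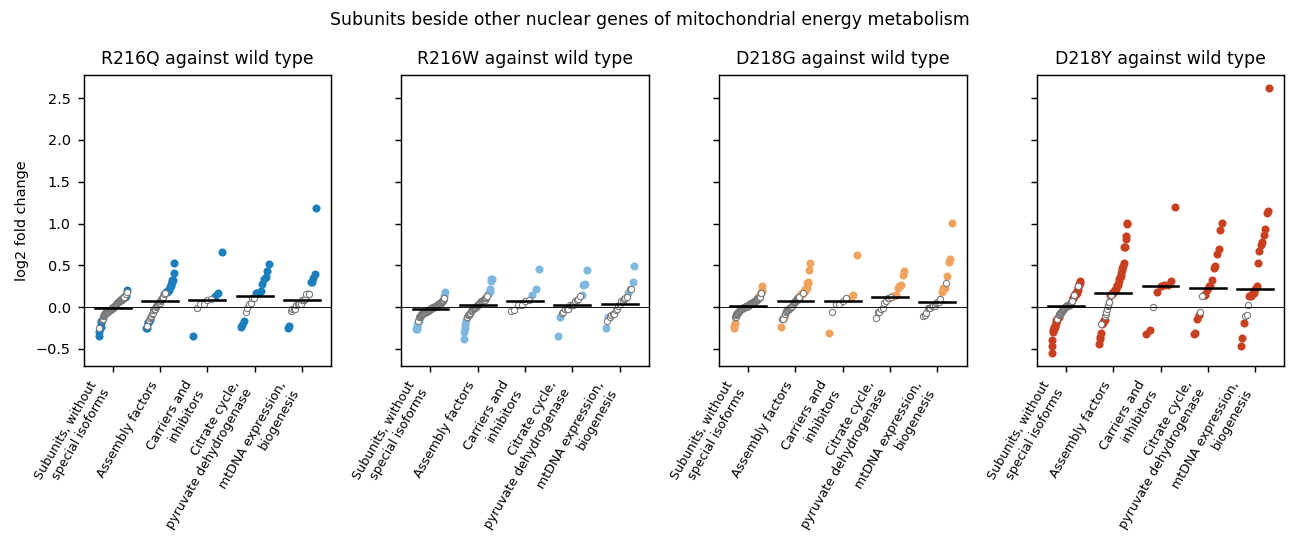
Log2 fold change against the wild type (vertical axis) of the 74 members outside the tissue and low-oxygen forms and of the genes of 4 pathway lists (horizontal axis), with a panel for each mutant line. Points are genes, filled where the adjusted p was under 0.05, and black bars are medians. In D218Y the medians are 0.17 for assembly factors and 0.01 for these members.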

How the data were processed

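The authors deposited log2 values, made with Partek 6.6 by RMA (per the submitters' processing notes), a method of background correction, quantile normalization and probe summary, and these were used as they stand. RMA makes array distributions alike and understates changes of dim genes. Precision is limited by how many arrays there are, since arrays give no counts. Of 28350 probe sets, 21780 had 1 gene symbol in the platform annotation, 1618 several and 4952 none listed, which gave 19933 genes. There were 106 member probe sets; 16 members had several, and 6 matching probe sets with several symbols were left out. Reads of near-identical gene copies by a probe set were not tested.

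limma 3.58.1 in R 4.3.3 fitted 1 mean per line over 15 arrays (lmFit, eBayes without trend, two-sided), with 6 contrasts and the F test, and was first tested on simulated data. No 2 arrays held the same values (at most 2.54% of probe sets identical).

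The members and lists were chosen with earlier results of these data known. Members past the threshold are named per contrast and complex, up to 3 rises and 3 falls, but not every such call is given. Ndufb6, called higher in R216Q and D218Y, is not described above. Also named are every complex II member, changes of 2-fold or more, tissue or low-oxygen forms with their general partners, and complex I core subunits. Per list, up to 3 rises and 3 falls are named. Promoter windows came from RefSeq (GRCm38.p6), and 16 members without an entry there were not searched.

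Alternatives, changed singly, were repeated quantile or cyclic loess normalization, median centring, genes above the median level, the arrays of the compared lines alone, eBayes with trend and robust, weighted arrays, a block for replicate number, averaged probe sets per gene, every probe set tested separately, an adjusted p under 0.01 and each array left out. The same alternatives were applied to the lists after the data were seen.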

Additional observations from a re-analysis of the deposited data

How the results depend on the processing

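Over all members, comparisons and alternatives, 12218 results kept their side of the threshold, 341 lost and 214 gained a call, and 1 reversed. A difference that passed in neither fit could change sign and still count as kept. The reversed result was Ndufa12 in D218Y. It was at 0.01 and not called with the settings used above. After repeated quantile normalization it was at -0.17 (limma adjusted p = 0.043). The cause of these shifts was not tested. The count of members called, 17 in R216Q, 11 in R216W and 11 in D218G, 10 for R216W against R216Q, 25 for D218Y against D218G and 40 in the F test, became 9, 2, 5, 6, 15 and 26 under median centring and 8, 6, 7, 6, 13 and 25 at an adjusted p under 0.01. In D218Y it was 40, and 32 under centring. With genes above the median level alone it was 28 in R216Q and 17 in D218G. With the arrays of the compared lines alone it was 11 in R216Q and 7 in R216W. eBayes with trend and robust gave 31 in R216Q, 19 in D218G and 17 for R216W against R216Q. Array weights, where limma stopped before converging, gave 40 in R216Q, 20 in R216W and 24 for R216W against R216Q. With 1 array left out, the counts ran from 11 to 18 in R216Q, 6 to 12 in R216W, 7 to 13 in D218G, 32 to 42 in D218Y, 6 to 11 for R216W against R216Q, 18 to 29 for D218Y against D218G and 31 to 43 in the F test.

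Genes of the pathway lists called, 45 in R216Q, 27 in R216W, 38 in D218G and 24 for R216W against R216Q, became 21, 13, 23 and 11 under centring. An adjusted p under 0.01 gave 12 in R216W, 20 in D218G and 15 for R216W against R216Q. Array weights gave 44, 24 and 41 there, and the compared arrays alone 18 in D218G. With 1 array left out the lists ran from 36 to 46 in R216Q, 17 to 31 in R216W, 24 to 36 in D218G, 69 to 81 in D218Y, 17 to 27 for R216W against R216Q and 52 to 63 for D218Y against D218G.

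The replicate numbers are shared by the lines, but of 30 same-numbered pairs only 3 deviated together (correlation of deviations over 0.1, range -0.50 to 0.41), so they were not taken as pairs. Some same-numbered arrays deviated in opposite directions, as wild type and D218G did in replicates 2 and 3 (-0.50 and -0.48). Arrays with different numbers were not set beside them, and the source of these shared deviations was not tested. With the replicate number as a block, 14 members were called in R216Q, 8 in R216W, 9 in D218G, 37 in D218Y, 9 for R216W against R216Q, 23 for D218Y against D218G and 33 in the F test.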
